A study of Sus scrofa with 24 samples.

Results

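Gene expression was compared between the vein just downstream of a graft and an untouched control vein, the external jugular, in pigs 14 days after an arteriovenous haemodialysis graft had been placed. The members were 8 of the series' 24 samples: the 4 downstream veins of day 14 (replicates 1 to 4) and the 4 jugular veins of day 14 with the same numbers, compared over all 43603 different non-control probes of a pig array. The other 16 samples were the venous anastomosis (the junction of graft and vein) at day 14 and all 3 sites at day 5, with 4 replicates a group. The 4 experiments used different biological replicates. The labels name no strain, sex, age, drug or transgene, and do not say whether the sites of a number come from 1 animal, so that "pair" below means 1 replicate number. Each sample was the whole RNA of a vein segment, a mixture of all the cells of its wall, in which fewer cells of a type and less RNA per cell cannot be told apart.

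Every downstream sample was labelled with the red dye Cy5 and every jugular sample with the green dye Cy3, the latter on the array shared with that number's anastomosis sample. A pair therefore spans 2 arrays, and in this comparison site and dye cannot be told apart. Levels below are normalised log2 intensities, and differences are downstream minus jugular on that scale, so that a difference of 1 is 2-fold. Of the probes, 56.9% to 80.2% were well above background across the 24 samples, and no spot was saturated. The file headers give an earlier version of the extraction protocol for replicates 1 and 2 than for 3 and 4. No 2 replicates of day 14 shared a slide, and the slide of replicate 4 also held its day 5 arrays. Only 9263 probes (21.2%) could be given a gene symbol, and a feature is the brightest probe of a symbol or a probe without one. All 16 tested markers of contractile smooth muscle were well above background in all 8 samples, as were 15 of the 17 tested endothelial markers. So were 4977 of the 5916 tested features with a symbol, so that detection alone does not set these markers apart.

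As background, veins joined to an artery by a graft are exposed to arterial pressure and high flow, and often narrow through neointimal hyperplasia, in which smooth muscle-like cells and matrix build up inside the vessel. The series title sets regions that are susceptible to this process against regions that resist it. The vein wall is lined by endothelial cells, supported by pericytes and contractile smooth muscle, and entered by white blood cells after injury. Thrombospondin 4, a secreted matricellular protein, and RGS5, which dampens G-protein signals in pericytes and arterial smooth muscle, are known from remodelling vessels.

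An array reports what its probe binds. The first 30 bases of the 60-base probes are therefore shown, as read from the scanner files, for 6 genes: the largest rises and falls, and those with near relatives whose RNA a probe might share (the thymosins and the Hsp70 proteins). Letters are lower case throughout, since no stretch within the probes is singled out.
THBS4: gctttcttttacccaccccatataccaaac
RGS5: ctatgtatgagggcaaccaaagtgaggata
TMSB10: cggactgccaaattatccggtttgccctgg
TMSB4X: aatttagagtaaaaagcgagctggtccaag
TP23: gagccgtgacattggaatgtgacggttgag
HSP70.2: tgagcacaagaggaaggagctggagcaggt
THBS4, RGS5 and TP23 rest on a single probe each. The 3 other probes of TMSB10 gave differences of 0.87 to 1.55, the 2 others of TMSB4X 0.87 to 1.09 and the other probe of HSP70.2 -1.95, all in the direction of the probes shown.

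At day 14 the downstream vein held more RNA than the jugular vein of single genes from several groups, among them the matricellular THBS4 (38.6-fold), the pericyte genes RGS5 and FHL5, the VEGF receptor KDR and the coagulation inhibitor TFPI. It held less of TP23 (10.4-fold), of the heat shock gene HSP70.2 and of CXCR2 and PGLYRP1, 2 of 6 neutrophil genes tested. The fitted difference was above 0 for 2 of those 6. Neither the CXCR2 nor the PGLYRP1 call held without replicate 1, 3 or 4. Of 33330 features tested with limma, 307 (0.921%) passed a Benjamini-Hochberg adjusted p of 0.05, which is what "called" means below. Of these, 215 (0.645% of all features) were higher and 92 (0.276%) lower downstream. Past 2-fold there were 105 (0.315%), 75 higher and 30 lower. At an unadjusted p under 0.05 there were 5017 features (15.1%). Gene symbols were available for 82 of the 307, of which 62 were higher and 20 lower. The sign was the same in every measured pair for 306 of the 307, against 19.0% of all features. The levels of the downstream and jugular samples did not overlap for 150, 102 higher and 48 lower. Over all features, such a separation was seen for 1.14% on the higher and 0.795% on the lower side. The calls were made from these same samples and pairs, so that shared signs and separation are no separate support for them.

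The number called varied with the samples and blocks that entered the fit. The fit drew its spread from all 24 samples, with 12 residual degrees of freedom. When the 8 samples were fitted alone, 0 features were called (3454 at an unadjusted p under 0.05), and without the replicate number as a block there were 11. Leaving out replicates 1, 2, 3 and 4 in turn gave 113, 649, 93 and 30 calls. In the authors' deposited table, fitted in the same way, the split was 304 higher and 289 lower. All 307 kept their sign in each of these fits. The fits reuse the same samples, and 306 of the 307 had 1 sign in every measured pair. A kept sign is therefore no separate support for a call. Of the 42 called genes named below, 21, 34, 16 and 7 were still called without replicates 1, 2, 3 and 4, 5 without the block and 27 with the scanner software's own processed signals. Each kept its direction there. Values without a replicate are given below as differences on the log2 scale.

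**Figure D1:**
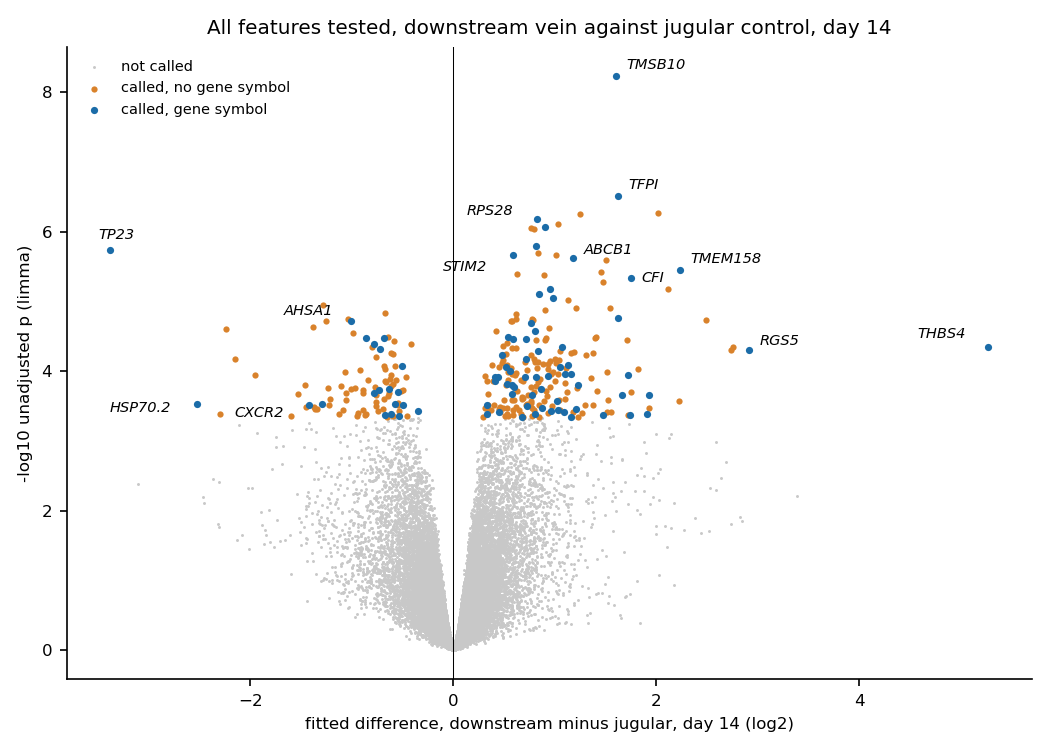
Fitted difference between downstream and jugular vein at day 14 (log2, horizontal) against the negative log10 of the unadjusted limma p (vertical) for the 33330 features tested, with called features coloured by whether they carry a gene symbol. The called features lie on both sides, 215 higher and 92 lower downstream, with THBS4 farthest to the right and TP23 farthest to the left.

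Among matrix genes, THBS4 changed most. Its level was 12.02, 13.90, 16.13 and 15.56 in downstream replicates 1 to 4 and 8.77, 10.53, 8.94 and 8.30 in the jugular veins. The groups did not overlap, and the differences in pairs 3 and 4 (7.19 and 7.26) were far wider than in pairs 1 and 2 (3.25 and 3.38). The fitted difference was 5.27 ± 0.91 (SE of the fit, n = 4 pairs; adjusted p = 0.021, limma). Here and below, the SE comes from the limma fit to all 24 samples and does not measure the spread of the 4 pairs. Without replicate 3 or 4 the differences of 4.63 and 4.61 were no longer called (adjusted p = 0.088 and 0.11). At the anastomosis THBS4 stood at 14.98, 16.50, 17.12 and 14.35, above the downstream sample in 3 of 4 replicates, and the downstream minus anastomosis difference of -1.33 ± 0.91 was not called. THBS4 was the 1 called gene among 14 matricellular genes tested, proteins of the matrix that signal rather than bear load. Of all features, 0.645% were called higher. A further 4 of the 14 were higher at an unadjusted p under 0.05 (8.47% of all features), and the median difference of the 14 was 0.69, against 0.01 over all features.

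Values for the other matrix genes were uneven between pairs. SPP1 (osteopontin), a secreted protein of bone and injured vessels, was at 12.95, 12.14, 14.76 and 11.13 downstream against 9.20, 10.68, 9.21 and 8.32 in the jugular vein. The groups did not overlap, but the difference of 3.39 ± 1.06 had an adjusted p of 0.14. TNN (tenascin N) differed by 3.41 and 4.46 in pairs 3 and 4 and by 0.39 and -0.26 in pairs 1 and 2. POSTN (periostin) differed by 1.58 and COL8A1, a short-chain collagen of the vessel wall, by 1.81, both with adjusted p above the threshold (0.14 and 0.11). None of 21 fibrillar collagen and matrix genes was called, and their median was 0.10. COL1A1, the main chain of type I collagen, was at 11.28, 10.26, 12.11 and 12.41 downstream and 10.81, 12.20, 11.93 and 11.80 in the jugular vein, with full overlap and a difference of -0.17 ± 0.36.

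Of 23 matrix proteases and their inhibitors, 2 rose and 0 fell (0.645% of all features were called higher). SERPINE2 (protease nexin-1), an inhibitor of thrombin and plasminogen activators, was at 12.32, 11.08, 11.50 and 10.34 downstream and 9.44, 10.24, 9.61 and 9.0 in the jugular samples. No downstream sample lay as low as the highest jugular one, and the difference was 1.74 ± 0.38 (adjusted p = 0.048). Leaving out replicates 1, 3 or 4 ended this call (1.36, 1.69 and 1.87, adjusted p = 0.13, 0.12 and 0.14). CTSB (cathepsin B), a lysosomal protease, rose by 1.02 ± 0.21 (adjusted p = 0.04), with pairs between 0.84 and 1.39, whereas its other probe gave 0.10, and it too was lost without replicates 1, 3 or 4 (1.08, 1.05 and 0.90, adjusted p = 0.089, 0.056 and 0.19). PLAU, the urokinase plasminogen activator, differed by 2.39 and 2.91 in pairs 3 and 4 and by 0.30 and 0.32 in pairs 1 and 2, and was not called (1.48, adjusted p = 0.13).

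Pericyte genes had a median above 0 in every pair, and 2 of 10 rose (0.645% of all features were called higher). RGS5 was at 13.66, 13.51, 13.25 and 12.73 downstream and at 7.91, 12.01, 11.29 and 10.26 in the jugular vein. The downstream samples lay close together, and the widest pair, replicate 1, came from a low jugular value. The difference was 2.92 ± 0.51 (7.56-fold; adjusted p = 0.022). Without replicate 4 it was 3.07 and not called (adjusted p = 0.095), and without replicate 1 it was 1.97 and called. FHL5, a LIM-domain cofactor of transcription found in mural cells, rose by 1.93 ± 0.39 (adjusted p = 0.036), with pairs of 2.24, 1.72, 1.03 and 2.73, and lost the call without replicates 1, 3 or 4 (1.82, 2.23 and 1.66, adjusted p = 0.098, 0.056 and 0.17). These were the 2 called genes of 10 tested pericyte markers. Medians over the 10 were 0.61, 0.70, 0.76 and 0.64 in pairs 1 to 4, and the median fitted difference was 0.43. At an unadjusted p under 0.05, 3 of the 10 were higher and 0 lower (8.47% of all features were higher). Of the 10, 4 were higher in all 4 pairs (3478 of all 33330 features were), and the fitted difference was below 0 for 2. RGS5 at the anastomosis, also labelled with Cy5, was at 12.51 to 13.48, close to the downstream range. The difference between these sites was 0.30.

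Contractile smooth muscle genes went with the pair. The list held 16 tested genes, such as the smooth muscle myosin MYH11, the actin ACTA2 and the actin-binding proteins calponin (CNN1), transgelin (TAGLN) and caldesmon (CALD1). None was called, and 6 were lower and 0 higher at an unadjusted p under 0.05 (6.58% of all features were lower). The median difference was -0.93. Pair medians were -0.27 and 0.28 in replicates 1 and 2 and -2.48 and -2.11 in replicates 3 and 4. The mean level of the list was 13.91, 11.59, 14.73 and 14.58 in jugular replicates 1 to 4 and 13.69, 11.98, 12.26 and 12.48 downstream. Jugular replicate 2 thus stood about as low as the downstream veins, and downstream replicate 1 about as high as a jugular vein. At the anastomosis the same genes held a narrow range of 12.05 to 12.35. Fitted within the arrays of replicates 3 and 4, 14 of the 16 fell, with a median of -2.29, where 3.23% of all features fell. Within those of replicates 1 and 2, 0 were called and the median was 0.05. Protocol version and slide move with this split, and their part in it was not tested. CNN1 shows the pattern in 1 gene: 16.90, 14.01, 13.97 and 14.11 downstream against 17.65, 14.36, 17.19 and 17.16, a difference of -1.84 ± 0.72 (adjusted p = 0.24).

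Adipocyte markers bear on the same samples. The mean level of the 21 tested was 13.43 in jugular replicate 2 and 9.15, 9.92 and 9.40 in the other jugular samples, and it was 9.18, 12.87, 10.23 and 12.07 downstream. ADIPOQ (adiponectin), the hormone of fat cells, was at 17.75 in jugular replicate 2 and 16.77 and 15.77 in downstream replicates 2 and 4, against 7.21 to 12.06 in the other 5 samples. The jugular sample with the highest adipocyte level was thus the one with the lowest smooth muscle level. None of the 21 was called, and pair 4 stood alone with a median of 2.63. The part of adipose RNA in the differences between veins was not tested.

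Of 17 endothelial genes, 1 rose and 0 fell (0.645% of all features were called higher). KDR, the main receptor for VEGF, was at 10.18, 10.40, 10.57 and 10.38 downstream and at 7.64, 9.51, 9.33 and 8.19 in the jugular vein. The downstream values lay close together above the highest jugular value, and KDR rose by 1.72 ± 0.33 (3.29-fold; adjusted p = 0.028). Its 2 other probes gave 0.36 and 0.59, and without replicates 1, 3 or 4 it was not called (1.44, 1.88 and 1.56, adjusted p = 0.10, 0.07 and 0.13). At the anastomosis, also labelled with Cy5, KDR was nearly the same as downstream (difference 0.04). Of the list, 12 of the 17 were higher and 0 lower at an unadjusted p under 0.05 (8.47% of all features were higher). The median was 0.66. PROX1, a transcription factor of lymphatic and venous valve endothelium, was at 8.47, 8.72, 8.64 and 8.36 downstream against 7.94, 7.06, 7.54 and 7.52, without overlap (1.03 ± 0.24, adjusted p = 0.064). FLT1 and TIE1, 2 more endothelial receptors, differed by 0.62 and 0.41 (both adjusted p = 0.10). PECAM1, a general endothelial surface marker, differed by -0.35, 0.75, 0.01 and 1.13 in the pairs.

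Among 19 genes known to respond to flow in endothelium, 2 rose and 0 fell (0.645% of all features were called higher). The median of the 19 was -0.10, which turned to 0.51 when arrays were median-centred in place of loess. ANGPT2, a secreted ligand that loosens vessel walls, rose by 1.23 ± 0.24 (adjusted p = 0.032), with pairs of 0.94, 1.61, 1.12 and 1.26. GJA4 (a connexin), a gap junction protein of arterial endothelium, rose by 1.03 ± 0.22 (adjusted p = 0.046) with no overlap, and its widest pair was 1.82 in replicate 4. NOTCH4, an endothelial Notch receptor named here after its values were seen, rose by 1.16 ± 0.22 (adjusted p = 0.028). Without replicate 4 these 3 genes differed by 1.22, 0.77 and 1.04 and were not called (adjusted p = 0.14, 0.17 and 0.15). ANGPT2 was also lost without replicates 2 or 3 (1.11 and 1.27, adjusted p = 0.074 and 0.073), GJA4 without replicates 1 or 3 (1.08 and 1.14, adjusted p = 0.097 and 0.073) and NOTCH4 without replicate 1 (0.90, adjusted p = 0.083).

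Genes that limit clotting and complement rose while most of their pathways did not pass the test. TFPI, the inhibitor that shuts down the first step of coagulation, was at 9.39, 10.40, 8.73 and 8.83 downstream and 7.76, 8.59, 7.04 and 7.45 in the jugular vein. Its pairs lay close together, 1.63, 1.81, 1.68 and 1.38, and the difference was 1.62 ± 0.18 (3.08-fold; adjusted p = 0.0033). CFI, the protease that cleaves active complement C3 and C4, was at 12.13, 10.45, 12.47 and 11.62 against 10.21, 9.25, 10.39 and 9.82, without overlap (1.75 ± 0.25, adjusted p = 0.0072), and its other probe gave 0.99. Without replicate 4 CFI was at 1.73 and not called (adjusted p = 0.069). CFI also stood 0.86 above the anastomosis, at an unadjusted p of 0.00347 that did not pass adjustment. These were the 2 called of 27 complement and coagulation genes (0.645% of all features were called higher). At an unadjusted p under 0.05, 12 of the 27 were higher and 1 lower (8.47% and 6.58% of all features). C3, the hub of the cascade, differed by 3.80 and 3.32 in pairs 3 and 4 and by 0.63 and 0.11 in pairs 1 and 2 (1.96 ± 0.62, adjusted p = 0.14). The complement genes C2 and C7 differed by 1.25 and 1.16 (adjusted p = 0.091 and 0.094). APOA1, the protein of high-density lipoprotein, rose by 1.62 ± 0.26 (adjusted p = 0.015), with pairs of 1.95, 1.78, 1.06 and 1.70, and its second probe gave 1.56. It was lost without replicate 4 (1.6, adjusted p = 0.083).

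**Figure D2:**
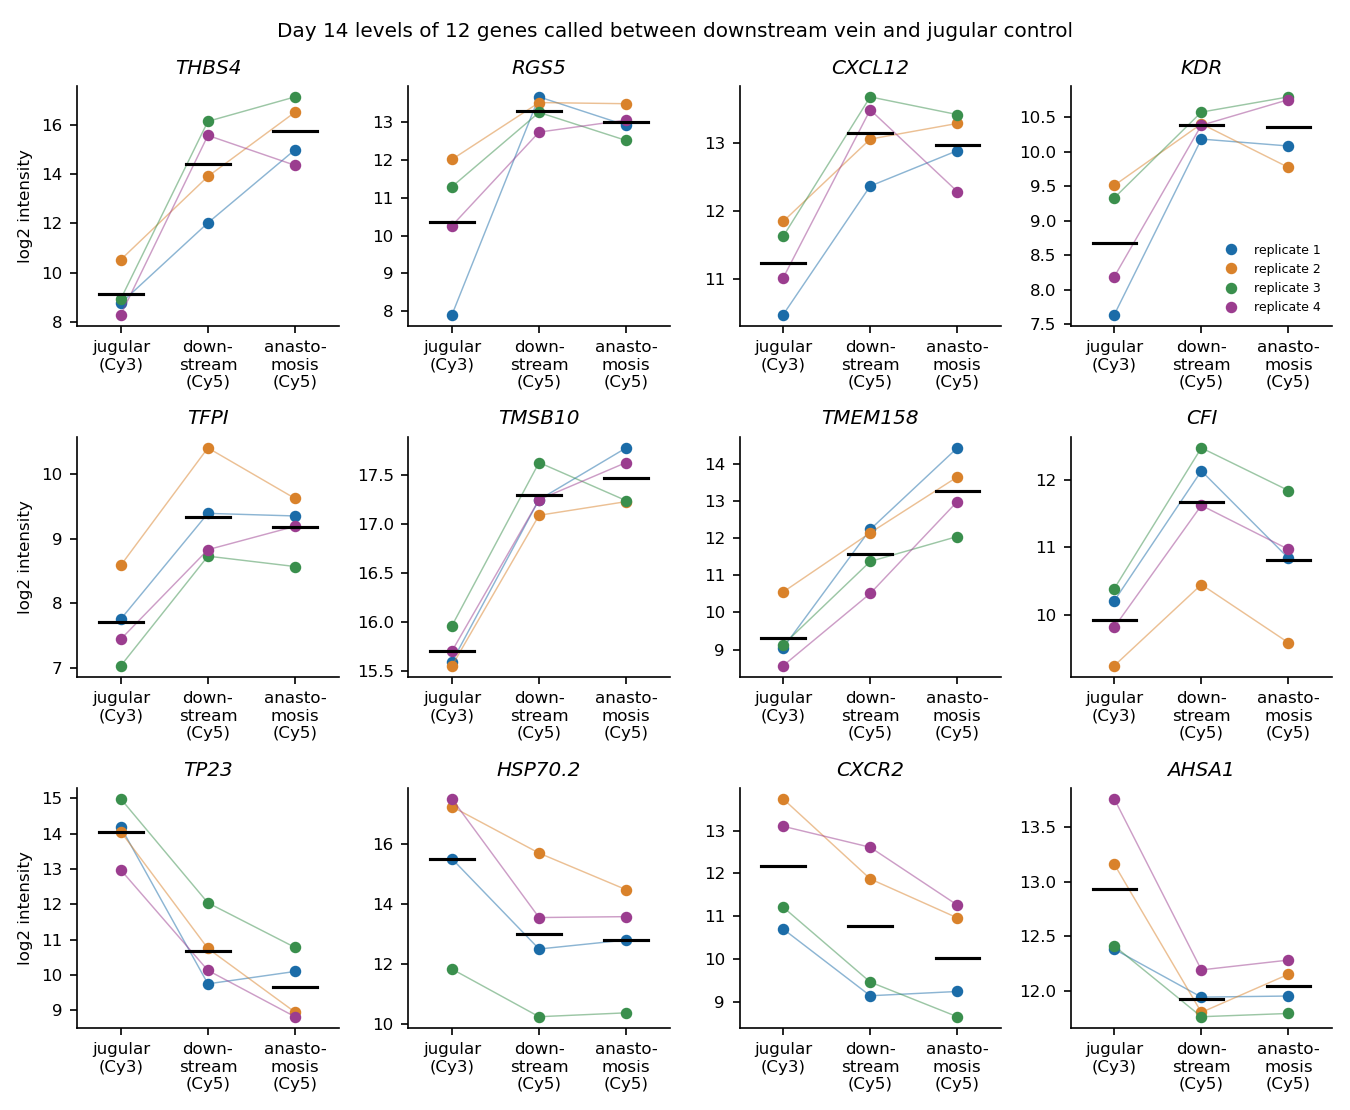
Normalised log2 intensity (vertical) of 12 called genes in the jugular, downstream and anastomosis samples of day 14 (horizontal), with points joined by replicate number and black bars at the group means. KDR and TMSB10 hold nearly the same level at both grafted sites, whereas TMEM158 rises from jugular to downstream to anastomosis in all 4 replicates. Both grafted sites are Cy5 and the jugular samples Cy3, so that site and dye cannot be told apart in a shared difference from the jugular vein.

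Among immune genes, the chemokine CXCL12 rose and the neutrophil genes CXCR2 and PGLYRP1 fell. CXCL12, a chemokine made by stromal and endothelial cells that retains blood progenitors and draws lymphocytes, was at 12.37, 13.06, 13.68 and 13.49 downstream and 10.48, 11.85, 11.63 and 11.02 in the jugular vein. The groups did not overlap (1.91 ± 0.42, adjusted p = 0.048), the other probe gave 0.67, and without replicates 1, 3 or 4 the call was lost (1.91, 1.86 and 1.72, adjusted p = 0.11, 0.15 and 0.18). It was the 1 called of 25 chemokines and cytokines (0.645% of all features were called higher). CXCR2, the receptor by which neutrophils follow CXC chemokines, was at 9.14, 11.87, 9.46 and 12.61 downstream and 10.70, 13.74, 11.21 and 13.10 in the jugular vein. Each downstream sample was lower than its own jugular partner, although the groups overlapped widely, and CXCR2 fell by 1.42 (SE 0.30, adjusted p = 0.043). Leaving out any single replicate ended this call (-1.37, -1.27, -1.31 and -1.73, adjusted p = 0.083 to 0.15). PGLYRP1, a bactericidal protein of neutrophil granules, fell by 0.61 (SE 0.13, adjusted p = 0.048), and was called again without replicate 2 but not without replicates 1, 3 or 4 (-0.62, -0.64 and -0.51, adjusted p = 0.11, 0.12 and 0.14). Over the 6 neutrophil genes tested, 2 fell and 0 rose (0.276% of all features were called lower), and the median was -0.23. Their pair medians were -0.86 and -0.68 in replicates 1 and 2 and 0.02 and 0.17 in replicates 3 and 4. CD101, a surface protein of myeloid and T cells, fell by 1.29 (SE 0.27, adjusted p = 0.043), with pairs of -1.55, -1.43, -1.14 and -1.04 and no overlap. It was lost without any single replicate (-1.37 to -1.21, adjusted p = 0.066 to 0.13).

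Macrophage and antigen-presentation genes differed in replicates 3 and 4. None of 19 macrophage markers was called. Their pair medians were -0.02 and -0.21 in replicates 1 and 2 and 1.3 and 0.86 in replicates 3 and 4, and their mean level was 10.49, 10.14, 12.04 and 11.69 downstream against 10.38 to 10.70 in the jugular vein. The 9 MHC class II genes, which present antigen to helper T cells, had medians of -0.17, 0.24, 1.67 and 1.27. Of the 9, 6 were higher at an unadjusted p under 0.05 (8.47% of all features were higher), with 0 called. SLA-DQA1 stood at 14.39, 14.57, 16.81 and 15.16 downstream against 14.00, 14.01, 14.95 and 13.75 (1.06 ± 0.30, adjusted p = 0.11). CCL21, which draws dendritic cells and T cells to lymphatics, was at 6.65, 8.40, 10.13 and 10.75 downstream and at 6.52 to 6.93 in every jugular sample (2.18 ± 0.70, adjusted p = 0.16). SLA-1, a pig MHC class I heavy chain named after its values were seen, rose by 0.83 ± 0.15 (adjusted p = 0.022) without overlap. Other class I genes are close in sequence, and the 7 other probes of SLA-1 gave 0.22 to 0.75. Without replicates 3 or 4 it was not called (0.78 and 0.75, adjusted p = 0.083 and 0.11).

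**Figure D3:**
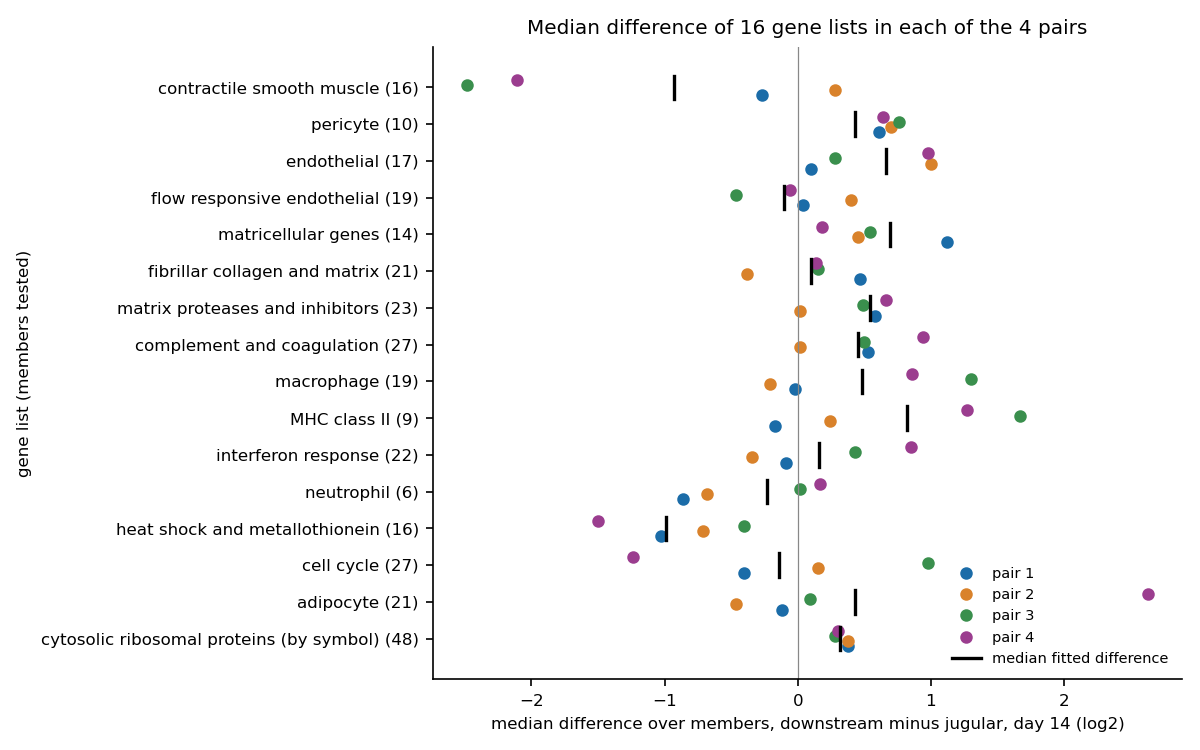
Median difference over the tested members of 16 gene lists (log2, horizontal), shown separately for the 4 pairs (points) with the median fitted difference (black bar). Contractile smooth muscle splits into pairs near 0 (replicates 1 and 2) and pairs below -2 (replicates 3 and 4). Macrophage and MHC class II genes split in the opposite direction. The median of the pericyte genes lies between 0.61 and 0.76 in every pair, and their median fitted difference is 0.43.

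Of the stress genes, 1 passed the test. HSP70.2, an inducible Hsp70 chaperone, was at 12.49, 15.69, 10.23 and 13.54 downstream and 15.50, 17.24, 11.82 and 17.50 in the jugular vein. The groups overlapped, since levels spread widely within each vein, yet every downstream sample lay below its partner, and HSP70.2 fell by 2.53 (SE 0.53, 5.76-fold, adjusted p = 0.043). Without replicates 1, 3 or 4 it was not called (-2.36, -2.84 and -2.05, adjusted p = 0.12, 0.073 and 0.19). Of 16 heat shock and metallothionein genes, 1 fell and 0 rose (0.276% of all features were called lower). At an unadjusted p under 0.05, 10 were lower and 0 higher (6.58% of all features were lower). In all 4 pairs, 6 of the 16 were lower (2826 of all 33330 features were). The median of the 16 was -0.99, with pair medians of -1.03, -0.71, -0.40 and -1.5. MT1A, a zinc-binding metallothionein, differed by -5.69, -2.55, -3.10 and -1.08 in the pairs (-3.11 ± 0.91, adjusted p = 0.12), and HSPA6, another inducible Hsp70, by -2.91, -1.93, -0.95 and -4.03 (-2.45 ± 0.79, adjusted p = 0.16). A pair of Hsp90 partners outside that list followed: AHSA1, which activates the Hsp90 ATPase, was at 11.76 to 12.19 downstream and 12.38 to 13.76 in the jugular vein and fell by 1.01 (SE 0.16, adjusted p = 0.015), and FKBP4, an Hsp90 co-chaperone, fell by 0.78 (SE 0.16, adjusted p = 0.035). AHSA1 was lost without replicate 4 (-0.82, adjusted p = 0.083) and FKBP4 without replicates 1, 2 or 4 (-0.66, -0.77 and -0.74, adjusted p = 0.12, 0.06 and 0.16). How long the tissues waited before extraction is not given in the labels, and its part in these values was not tested.

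TP23 was the largest fall. It is listed in the files as a basic proline-rich protein and stood at 9.75, 10.75, 12.04 and 10.13 downstream and at 14.18, 14.05, 14.98 and 12.97 in the jugular vein. No downstream value reached the lowest jugular one, and TP23 fell by 3.38 (SE 0.44, 10.4-fold, adjusted p = 0.0051). It was lower still at the anastomosis (8.82 to 10.78), with a downstream minus anastomosis difference of 1.01 that was not called. The other named falls were smaller: PMVK, a kinase of cholesterol synthesis, by 0.86, the zinc-finger genes ZNF134 and ZNF777 by 0.78 and 0.72, DAO, an oxidase of D-amino acids, by 0.73, CA6, a secreted carbonic anhydrase, by 0.68 and SUN2, a nuclear envelope protein, by 0.67, a value that turned to 0.15 under median centring. Each of these 6 calls was lost without replicate 4, where the differences of PMVK, ZNF134, ZNF777, DAO, CA6 and SUN2 were -0.80, -0.69, -0.76, -0.60, -0.64 and -0.61 (adjusted p = 0.092 to 0.19). Those of PMVK, ZNF134, CA6, DAO and SUN2 were also lost without replicate 3 (-0.78, -0.74, -0.56, -0.85 and -0.59), and those of ZNF777, DAO and SUN2 without replicate 1 (-0.62, -0.58 and -0.72). CA6 was well above background in only 2 downstream and 3 jugular samples, and the second probe of DAO gave -0.08.

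**Figure D4:**
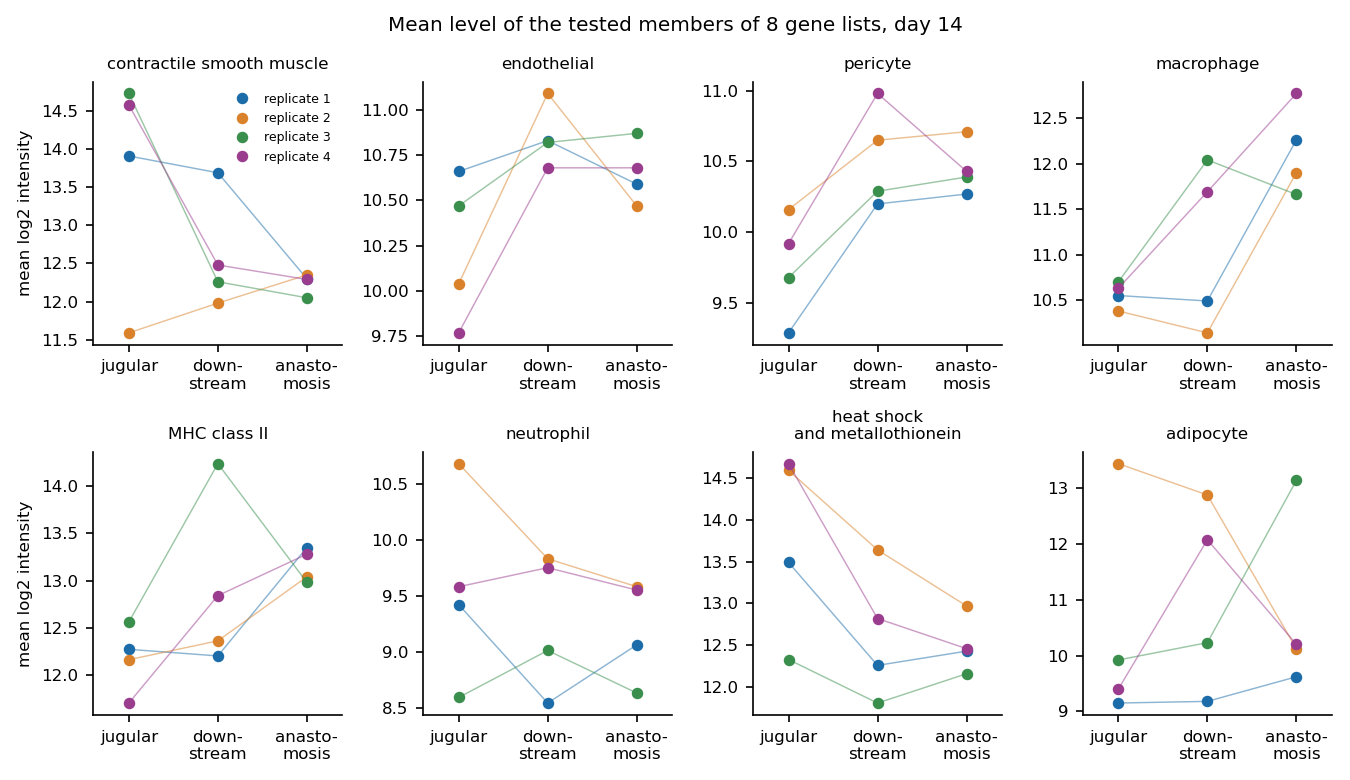
Mean normalised log2 intensity (vertical) over the tested members of 8 gene lists in the jugular, downstream and anastomosis samples of day 14 (horizontal), joined by replicate number. Jugular replicate 2 is low for contractile smooth muscle (11.59) and high for adipocyte genes (13.43), and downstream replicates 3 and 4 are the highest of that vein for macrophage genes (12.04 and 11.69).

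TMSB10 had the lowest p among the genes named. Thymosin beta 10, a small peptide that binds free actin, was at 17.25, 17.09, 17.63 and 17.25 downstream and 15.59, 15.55, 15.96 and 15.70 in the jugular vein. Its pairs were 1.66, 1.54, 1.68 and 1.54, and the difference was 1.61 ± 0.13 (3.04-fold; adjusted p = 0.00019). The related thymosin beta 4, TMSB4X, rose by 1.66 ± 0.34 (adjusted p = 0.037), but its pairs spread from 0.43 to 3.10, and it was lost without replicates 1, 2 or 4 (1.18, 1.56 and 1.83, adjusted p = 0.077, 0.077 and 0.11). TMEM158, a membrane protein first found through RAS signalling, was at 12.23, 12.14, 11.37 and 10.51 downstream and 9.05, 10.55, 9.13 and 8.57 in the jugular vein (2.24 ± 0.31, adjusted p = 0.0068), and the lowest downstream sample lay just under the highest jugular one. ABCB1, an efflux pump of endothelial barriers, was at 9.01, 9.36, 8.81 and 8.49 against 7.76, 8.13, 7.77 and 7.27 and rose by 1.19 ± 0.16 (adjusted p = 0.0052) with no overlap. Of the 42 called genes named in the text, 7 were called whichever replicate was left out (ABCB1, RPS23, RPS28, TFPI, TMEM158, TMSB10 and TP23) and 5 in none of the 4 such fits (CD101, CXCR2, FTL, HDC and RPL19).

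Cytosolic ribosomal proteins were grouped by symbol after their values had been seen. Of 48 genes tested, 14 rose and 0 fell (0.645% of all features were called higher). The median difference was 0.32, with pair medians of 0.38, 0.38, 0.28 and 0.30. RPS23 was at 17.52, 17.77, 17.56 and 17.29 downstream and 16.60, 16.61, 16.84 and 16.45 in the jugular vein (0.91 ± 0.11, adjusted p = 0.0033). Their median was 0.34 at day 5, where the dyes were arranged in the same way, and 0.06 in downstream minus anastomosis, where both samples were Cy5. With the scanner software's own processed signals, 2 of the 48 were called higher (median 0.22), where 0.6% of all features were, and with quantile scaling of single channels 6 (median 0.14), where 0.54% were. RPS28, RPS20, RPL27A, RPL35 and RPL19 rose by 0.83, 0.85, 0.77, 0.72 and 0.33, and for RPS28, RPL27A and RPL35 the spot of jugular replicate 1 was missing. Without replicate 4, RPS20, RPL27A, RPL35 and RPL19 were at 0.84, 0.81, 0.62 and 0.34 and not called (adjusted p = 0.077 to 0.14), and without replicate 3 at 0.81, 0.71, 0.81 and 0.27 (adjusted p = 0.051 to 0.18). RPL19 was also lost without replicates 1 or 2 (0.38 and 0.33). Other probes of the same genes gave -0.13 to 0.00 for RPS23 and 0.08 to 0.16 for RPS28, but 0.30 to 0.82 for RPS20, 0.09 to 0.42 for RPL27A and 0.02 to 0.41 for RPL35. The ferritin genes FTH1 and FTL, which store iron and were also named after their values were seen, rose by 0.95 ± 0.14 (adjusted p = 0.0092) and 1.16 ± 0.26 (adjusted p = 0.049). The other probes of FTH1 ranged from -0.03 to 0.97, and those of FTL only from 0.0 to 0.42. Without replicate 4 FTH1 was at 0.87 and FTL at 1.01 (adjusted p = 0.074 and 0.21). The dye's part in these rises cannot be told apart from that of the site.

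**Figure D5:**
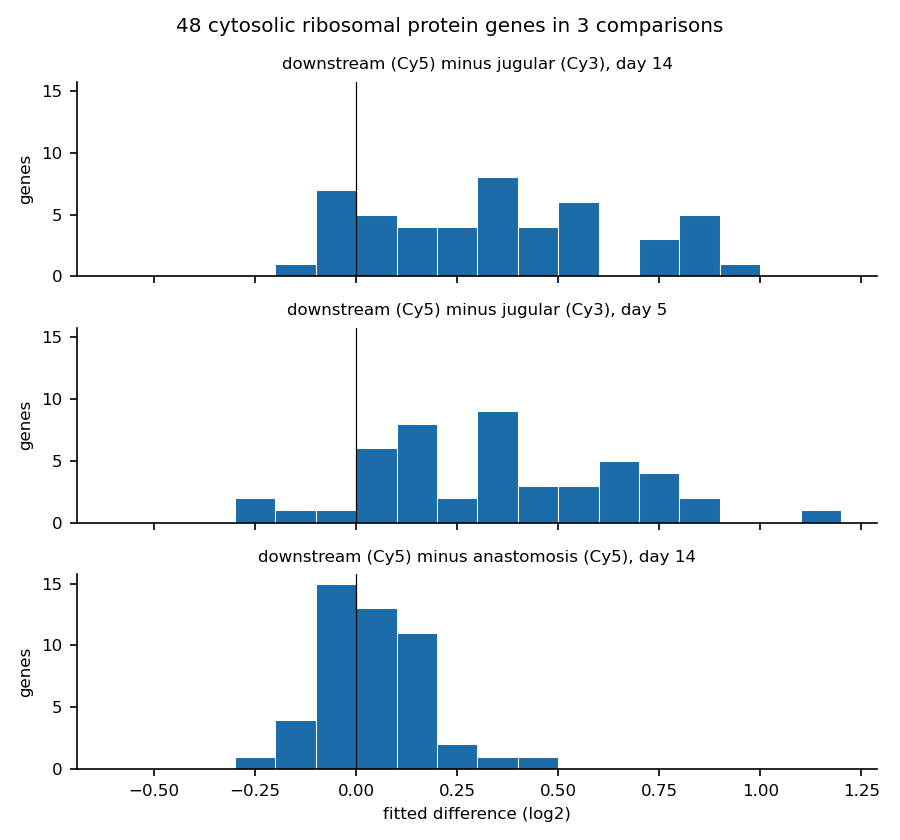
Number of cytosolic ribosomal protein genes (vertical) by fitted difference (log2, horizontal) in 3 comparisons of the downstream vein, for the 48 genes tested. The genes are centred on 0.32 and 0.34 against the Cy3 jugular samples of days 14 and 5, and on 0.06 against the Cy5 anastomosis samples.

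Other called genes named after their values were seen were BMP5, a bone morphogenetic ligand (7.19, 8.65, 7.42 and 7.36 downstream against 6.29, 6.59, 6.75 and 6.56; rose by 1.11 ± 0.21, adjusted p = 0.028), HDC, the enzyme that makes histamine (1.21 ± 0.26, adjusted p = 0.045), and SPOCK3, a matrix proteoglycan (1.47 ± 0.32, adjusted p = 0.048, with pairs from 0.42 to 2.21). None of the 3 was called without replicate 4 (1.21, 1.08 and 1.59, adjusted p = 0.10, 0.18 and 0.14), and BMP5 (1.17 and 1.25) and SPOCK3 (1.23 and 1.26) were also lost without replicates 1 or 3. Neither BMP5 nor SPOCK3 was well above background in all 8 samples compared. IGF1R, the receptor of insulin-like growth factor 1, lay just outside the threshold at -0.64 ± 0.14 (adjusted p = 0.052), although its downstream levels, 6.85 to 7.13, lay below every jugular level, 7.48 to 7.95.

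Across the 34 gene lists, 504 of 793 distinct members were tested and 14 called, 11 higher and 3 lower. Of all 5916 features with a symbol, 82 were called, 62 higher and 20 lower. No member was called in 25 lists. The cell cycle list is one of those. Its 27 tested genes had a median of -0.14, which turned to 0.25 under median centring, and 0 at an unadjusted p under 0.05 in either direction, with pair medians of -0.40, 0.15, 0.98 and -1.24. CCNB1 (cyclin B1), which drives entry into mitosis, differed by -0.22, 0.68, 1.44 and -2.14, and CDK1, its kinase partner, by 0.13, 0.68, 1.84 and -1.68.

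The same contrast at day 5 used 8 other samples with the same dye arrangement. Of the 307 features, 300 had the same sign there and 179 were also called with it. The 215 higher features had a median of 0.83 at day 14 and 0.53 at day 5, and the 92 lower ones -0.77 and -0.54. At day 5 alone 2742 features (8.23%) were called. THBS4 differed by 3.47 at day 5, TMEM158 by 2.75, TFPI by 2.09 and TMSB10 by 1.89, while ABCB1 differed by 0.25. The change of the difference between days, in which a constant dye effect cancels, gave 0 called features with limma (2508, or 7.52%, at an unadjusted p under 0.05). It was 1.80 for THBS4 and 0.93 for ABCB1 (adjusted p = 0.66). The cell cycle list had the widest shift of this kind among the lists described, with a median of -1.53: it was 1.5 at day 5. HMMR and STMN1, a spindle protein and a microtubule regulator of dividing cells, changed between days by -1.44 and -1.43 (both adjusted p = 0.66).

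Against the anastomosis of the same day, where both samples were Cy5, 0 features were called with limma, and 4707 (14.1%) had an unadjusted p under 0.05. Leaving out replicate 3 gave 1223 calls, 475 higher and 748 lower downstream. The downstream samples enter both this comparison and the one with the jugular vein. The 215 features called higher than in the jugular vein had a median downstream minus anastomosis difference of 0.06. For the 92 called lower it was -0.02. The lowest p among genes with a symbol belonged, on the higher side, to ABCB1, with 9.01, 9.36, 8.81 and 8.49 downstream against 8.11, 7.77, 7.96 and 7.83 at the anastomosis (1.00 ± 0.16, unadjusted p = 1.57e-05, adjusted p = 0.11). The groups did not overlap, and ABCB1 was thus higher in the downstream vein than at either other site in every replicate. On the lower side COL11A1, a fibrillar collagen chain of cartilage, was at 6.84, 7.0, 7.26 and 7.16 downstream and 8.32, 10.95, 9.97 and 9.42 at the anastomosis (-2.60 ± 0.48, adjusted p = 0.11), and SOX9, a transcription factor of cartilage, differed by -0.82. TMEM158 (-1.71), the scavenger receptor MSR1 of macrophages (-2.06, adjusted p = 0.11), the osteoclast phosphatase ACP5 (-3.23, adjusted p = 0.12) and SCARA5, a ferritin receptor of resting fibroblasts (2.23, adjusted p = 0.13), followed. Of 19 macrophage markers, 13 were lower downstream at an unadjusted p under 0.05 (7.41% of all features were lower), with a median of -0.86 and 0 called. Without replicate 3, 7 of them were called lower, where 2.24% of all features were.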

How the data were processed

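The deposited scanner files hold intensity values on a linear scale (mean foreground and median background of each spot), not normalised, and, per the file headers, the processed intensity that version 10.5.1.1 of Agilent Feature Extraction wrote. The authors also deposited a table of log2 values, and how they made it was not given in the sources used here. Its column medians lie between 7.34 and 7.42; any centring stays unknown, and only replicates 1 to 3 follow the scanner values.

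In limma 3.58.1 (R 4.3.3), normexp (offset 50), loess within arrays and Aquantile between arrays gave each sample's own channel. Features that 4 or more of the 24 samples showed well above background were fitted with lmFit and eBayes (6 groups, 8 blocks of replicate number within a day), with two-sided p adjusted over all features. Same-number downstream and jugular samples of day 14 correlated at 0.476 to 0.709 in their deviations from the group means, other numbers at -0.541 to 0.208. 

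Named genes were the 12 largest called rises and falls that had 1 sign in 4 pairs, up to 4 members of each list with the lowest p, a set list of genes, and the 5 lowest p in each direction of the other contrasts. Members and lists were chosen with earlier results of these data known. Genomic positions are not given, since no genome was used here.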

Additional observations from a re-analysis of the deposited data

Results flagged for a closer look

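With 4 samples a group, 1 sample can stand far from the other 3. Of 273 groups examined, 13 did so by Dixon's criterion, and chance gives about 1 in 20. Downstream replicate 1 stood above the others for CNN1 (16.90) and TPM2 (16.10), while for CNN1 jugular replicate 2 stood below (14.36). Downstream replicate 2 stood apart for TAGLN (11.66), C7 (6.83) and BMP5 (8.65), and the jugular samples for VSIG4 (replicate 2, 10.53), CCL21 (replicate 3, 6.52) and SCARA5 (replicate 1, 14.27). PMVK was lowest in downstream replicate 3 (8.13) and RPS20 in downstream replicate 4 (17.35). Over lists, the chemokines and cytokines had their farthest value in downstream replicate 1 (9.62) and the interferon response genes in jugular replicate 2 (11.68).

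The green channel of the 4 downstream arrays has no sample in the labels and was not compared as a sample. It did enter the loess and Aquantile normalisation of those arrays, from which the downstream values were taken. It was well above background for 57.1%, 70.1%, 82.4% and 76.6% of spots in arrays 1 to 4. Across 18980 spots, and after subtraction of the mean over samples, its values correlated with the labelled jugular sample of the same number at 0.957, 0.985, 0.962 and 0.964 and with another number at 0.351 at most. These correlations are across spots, which are not independent replicates.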

How the results depend on the processing

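The 307 calls became 478 with no background correction, 10118 (7827 higher, 2291 lower) when arrays were median-centred in place of loess, which moved the median of all features from 0.01 to 0.19, 593 with the authors' deposited table, 11 without the replicate block and 0 when only the 8 samples compared were fitted. Within the arrays of replicates 1 and 2 there were 0, and within those of replicates 3 and 4 there were 1798. Leaving out a replicate gave 30 to 649. Processed signals (264), single-channel quantiles (283), no filter (263), a filter on all 8 samples (272) and the mean over probes (259) stayed within 1.5 times, but only 149 of the 307 features were among the 264. The 105 features past 2-fold became 229 with processed signals, 159 with no background correction, 422 with the authors' table, 1696 with median centring, 6 without the block, 0 with only the samples compared, 0 and 910 within replicates 1 and 2 and within 3 and 4, and 44, 232, 50 and 13 without replicates 1 to 4. The 14 called list members became 171 with median centring, 26 with the authors' table, 1 without the block, 0 with only the samples compared, 0 within replicates 1 and 2 and 62 within replicates 3 and 4, and 1 to 25 when a replicate was left out. Under median centring 292 of the 307 features kept their sign, and SUN2 turned to 0.15; under every other alternative all with a value kept it. Against the anastomosis, the 0 calls became 8 with the authors' table and 0 to 1223 without a replicate, the highest without replicate 3; the change between days gave 0 throughout. In the authors' table the columns of replicates 1, 2 and 3 correlated with their own scanner files at 0.65 to 0.90 across features and those of replicate 4 at 0.03 to 0.22, so that its replicate 4 holds other values. Where a number changed, the cause was not tested, except that fewer samples leave fewer degrees of freedom. Signal over background limits the dim probes: 274 of the 307 features were well above background in all 8 samples.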
